A study of Sus scrofa with 50 samples.

Results

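Lymph tissue of Korean minipigs (Sus scrofa) was compared with backfat, brain, loin and tenderloin by RNA sequencing, mostly in the same animals. The lymph group was chosen by its tissue label, and 9 of the 10 lymph libraries were used, from 4 animals of the ET type (S0242, S0276, S0309 and S0326) and 5 animals of the L type (S0349, S0355, S0377, S0384 and S0385). It was set against 9 backfat libraries (5 ET and 4 L), 8 brain libraries (4 ET and 4 L), 9 loin libraries (5 ET and 4 L) and 10 tenderloin libraries (5 ET and 5 L), so that 45 of the 50 libraries of the series were compared. ET and L are the labels' names for 2 types of minipig and are not spelled out there. The labels give no age, sex or treatment, and they do not say which lymph node, or which other lymphoid tissue, was taken. Values are TPM, a share of the library scaled for transcript length, of assembled transcripts summed over those with the same closest Swiss-Prot protein, here called a gene. Each library sums to 1000000 TPM, the number of reads behind it is unknown, and the precision comes from the spread between animals.

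A lymph node is the organ in which lymphocytes meet antigen carried in from the tissues. T cells gather in a zone of reticular cells that make chemokines, B cells gather in follicles around follicular dendritic cells, and activated B cells divide and mutate their antibody genes in germinal centres before some become antibody-secreting plasma cells. Lymphocytes enter from the blood across specialised vessels. Pig lymph nodes are known for an inverted layout, with follicles in the interior.

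The rule had left out 5 libraries that stood apart from the rest of their groups, 3 of which went against their labels. The lymph library of S0235 held 4224 TPM of kidney markers, among them UMOD, a protein made by kidney tubules, at 2156 TPM, whereas the 9 lymph libraries used held 5.79 to 16.5 TPM (median 10.3) of kidney markers. It held 108 TPM of T cell genes, whereas the 9 held 3037 to 6294 TPM (median 5172). The library labelled S0355 backfat held 124320 TPM of skeletal muscle markers, and the library labelled S0355 loin held 16035 TPM of adipocyte markers and 63.8 TPM of muscle markers. The libraries labelled S0235 and S0355 brain held 30538 and 37999 TPM of the myelin gene MBP, whereas the 8 brain libraries used held 15.98 to 80.1 TPM (median 55.5) of it. Those 8 held 805 to 40120.5 TPM (median 12459) of the pituitary hormone prolactin (PRL). The brain group is called by its label here, but its libraries were rich in pituitary hormones and low in myelin genes. Within the lymph group, each library correlated with the mean of the other lymph libraries at an r of 0.969 to 0.990 across genes, and with the backfat mean at 0.667 to 0.744. With all 50 libraries in the fit, these 5 included, 617 genes were lymph-enriched, of which 600 were among the 677 described next.

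Of 13458 genes tested, 677 were lymph-enriched, which means a mean at least 2 log2 units, or 4-fold, above each of the 4 other tissues with all 4 contrasts called at an adjusted p under 0.05 (limma on log2(TPM + 1), Benjamini-Hochberg), or 5.03% of the genes tested. Genes higher in lymph than in all 4 tissues by any amount numbered 2115 (15.7%). The mirror image was rarer, with 101 genes at least 2 log2 units lower than in every other tissue (0.75%) and 1117 lower by any amount (8.3%). In 622 of the 677 enriched genes the lowest lymph library lay above all 36 libraries of the other tissues, against 980 such genes among all those tested (7.28%). The enriched genes took 8.73% to 12.9% of TPM in the lymph libraries (median 10.4%), against 0.382% to 1.31% in backfat, 0.531% to 1.52% in brain, 0.129% to 0.307% in loin and 0.165% to 0.388% in tenderloin. Both the lack of overlap and these TPM shares largely follow from the selection of the genes, which was made on the same libraries. The nearest tissue, in which an enriched gene was next highest, was brain for 332 genes and backfat for 312, and was loin for 12 and tenderloin for 21. Their median lymph mean was 44.0 TPM, against 13.9 TPM for all genes tested, 206 had a lymph mean of at least 100 TPM and 15 of at least 1000 TPM.

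**Figure D1:**
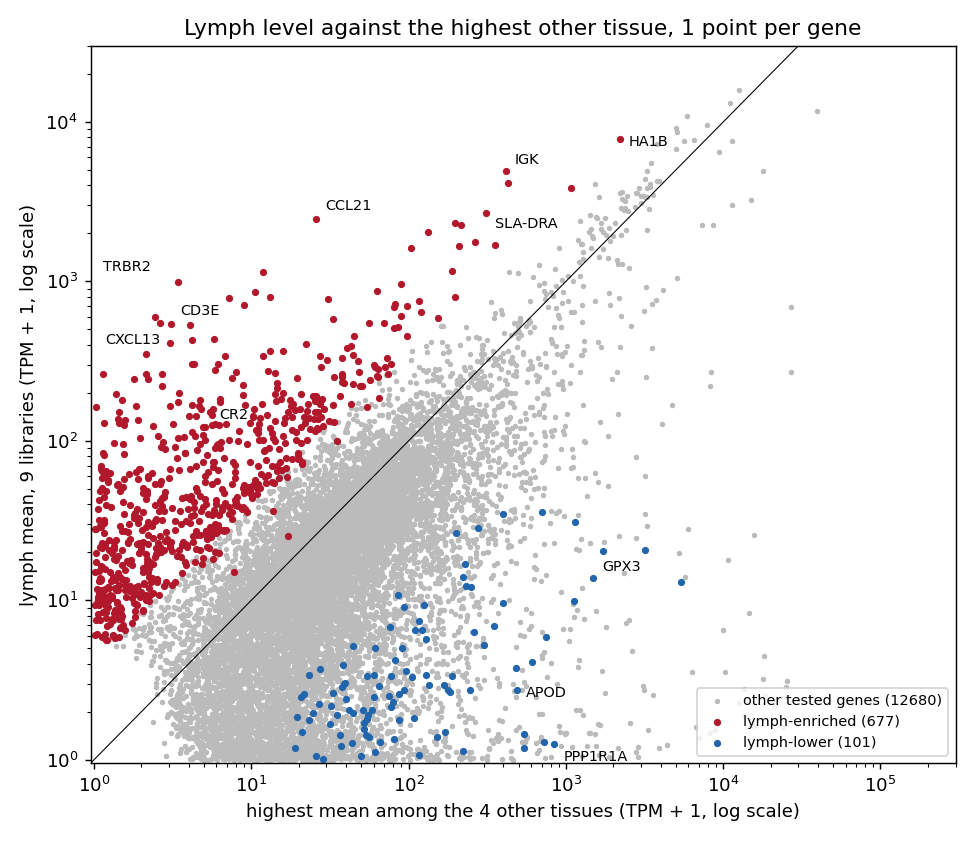
Each point is a gene tested, with its mean in 9 lymph libraries (vertical) against its highest mean among backfat, brain, loin and tenderloin (horizontal), both as TPM + 1 on log scales. The 677 lymph-enriched genes are red, the 101 lymph-lower genes blue, and the line marks equal levels. A red point can lie close to the line because enrichment was judged on mean log2 values and not on mean TPM.

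Taken tissue by tissue, 5964 genes were higher (44.3%) and 3785 lower (28.1%) in lymph than in backfat, and 2843 were higher (21.1%) and 7240 lower (53.8%) in lymph than in brain. Against loin, 8010 genes were higher (59.5%) and 2859 lower (21.2%), and against tenderloin 8314 were higher (61.8%) and 2698 lower (20%). These splits depend on scaling, since TPM in a library sum to a constant. The median log2 difference over all genes was 0.22 against backfat, -0.50 against brain, 0.72 against loin and 0.77 against tenderloin, and under median-ratio scaling it was 0.04, -0.02, 0.04 and 0.04 in the same order. Of the genes called, 61.2% were higher in lymph than in backfat, 28.2% than in brain, 73.7% than in loin and 75.5% than in tenderloin. Under median-ratio scaling these shares were 52.5% for backfat, 49% for brain, 51.6% for loin and 52% for tenderloin. Under that scaling 650 genes were enriched, of which 601 were among the 677. These are bulk tissues, in which fewer cells of a type and less RNA per cell cannot be told apart.

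For the gene lists below, the shares over all genes tested were 5.03% enriched and 15.7% higher than in all 4 tissues. T cell genes had the largest median difference of the lists. Of 30 tested members of a list of T cell receptor, coreceptor and identity genes, 27 were lymph-enriched and 28 were higher than in all 4 tissues. The median of their smallest log2 difference from another tissue was 5.59, against -0.86 over all genes tested. Their summed level was 3037 to 6294 TPM (median 5172) in lymph, against at most 258 TPM in backfat, 127 in brain, 27.6 in loin and 67.4 in tenderloin. CD3E, a signalling chain of the T cell receptor complex, had 406 to 749.5 TPM (median 523) in lymph and 0.137 to 9.04 TPM (median 1.15) in brain, the nearest tissue. The lowest lymph library lay above the highest library of any other tissue, as the plot of 12 genes by tissue shows. The smallest log2 difference was 7.77 ± 0.26 (SE), with an adjusted p of at most 9.3e-28 in the 4 contrasts. CD3G, another chain of the complex, had 192 to 931 TPM (median 619) in lymph and at most 5.51 TPM in the 36 other libraries. CD3D had 68.8 to 223 TPM (median 133) in lymph and at most 1.33 TPM elsewhere. The T cell receptor beta entry TRBR2, with 574 to 1444 TPM (median 1031) in lymph and 0 to 10.7 TPM (median 1.27) in brain, had the largest smallest difference of any enriched gene with a lymph mean of at least 5 TPM, 8.53 ± 0.30. The brain library of S0384 held the highest brain values of CD3E and TRBR2, and the next for CD3E was 1.87 TPM in S0326. It also held the highest brain values of MS4A1, 1.13 TPM, and CCR7, 1.61 TPM.

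Chains of the alpha-beta receptor were more abundant than chains of the gamma-delta receptor in every lymph library. The 10 beta entries summed to 834 to 1938 TPM (median 1489) in lymph and to at most 15.2 TPM in any other library. The 17 alpha entries summed to 542 to 1189 TPM (median 1037). The 4 gamma entries summed to 79.5 to 162.5 TPM (median 111), and the delta constant entry TRDC had 34.8 to 139 TPM (median 53.2). Entries within such a family are near-identical, so their division is uncertain and the sums are the firmer values. CD4, the coreceptor of helper T cells, had 37.9 to 81.8 TPM (median 57.7) in lymph and at most 0.874 TPM elsewhere. CD8A, a coreceptor chain of cytotoxic T cells, had 42.2 to 162.9 TPM (median 96.99) in lymph and at most 1.71 TPM elsewhere. Its partner chain CD8B had 27.4 to 112 TPM (median 65.1) in lymph and at most 0.258 TPM elsewhere. None of the 3 coreceptor genes overlapped with another tissue, and CD4, CD8A and CD8B were named after their values were seen, as were TCF7, IL7R, ICOS, CD40LG and CTLA4.

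LEF1, a transcription factor of T cell development, had 193 to 519.8 TPM (median 394) in lymph and at most 3.61 TPM elsewhere. TCF7, its close relative, had 143 to 419 TPM (median 325) in lymph and at most 5.18 TPM elsewhere. IL7R, the receptor for the survival cytokine interleukin-7, had 157 to 372 TPM (median 203) in lymph and at most 4.49 TPM elsewhere. All 9 lymph libraries lay above every other library for each of these. ICOS, a costimulator on activated T cells, had 38.03 to 99.5 TPM (median 65.2). CD40LG, the signal of helper T cells to B cells, had 16.7 to 25.8 TPM (median 20.2). CTLA4, an inhibitory receptor, had 6.12 to 12.5 TPM (median 9.28). These 3 were enriched too. IL2RA, a subunit of the interleukin-2 receptor, was not enriched, with 7.59 to 20.1 TPM (median 13.7) in lymph and 2.57 to 42.5 TPM (median 7.75) in backfat, and did not differ past the threshold there. GATA3, a regulator of helper T cells, was higher but not enriched, with 9.61 to 18.8 TPM (median 11.5) in lymph and 0.0772 to 16.1 TPM (median 6.55) in backfat. The lymph libraries overlapped with backfat for IL2RA and GATA3.

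**Figure D2:**
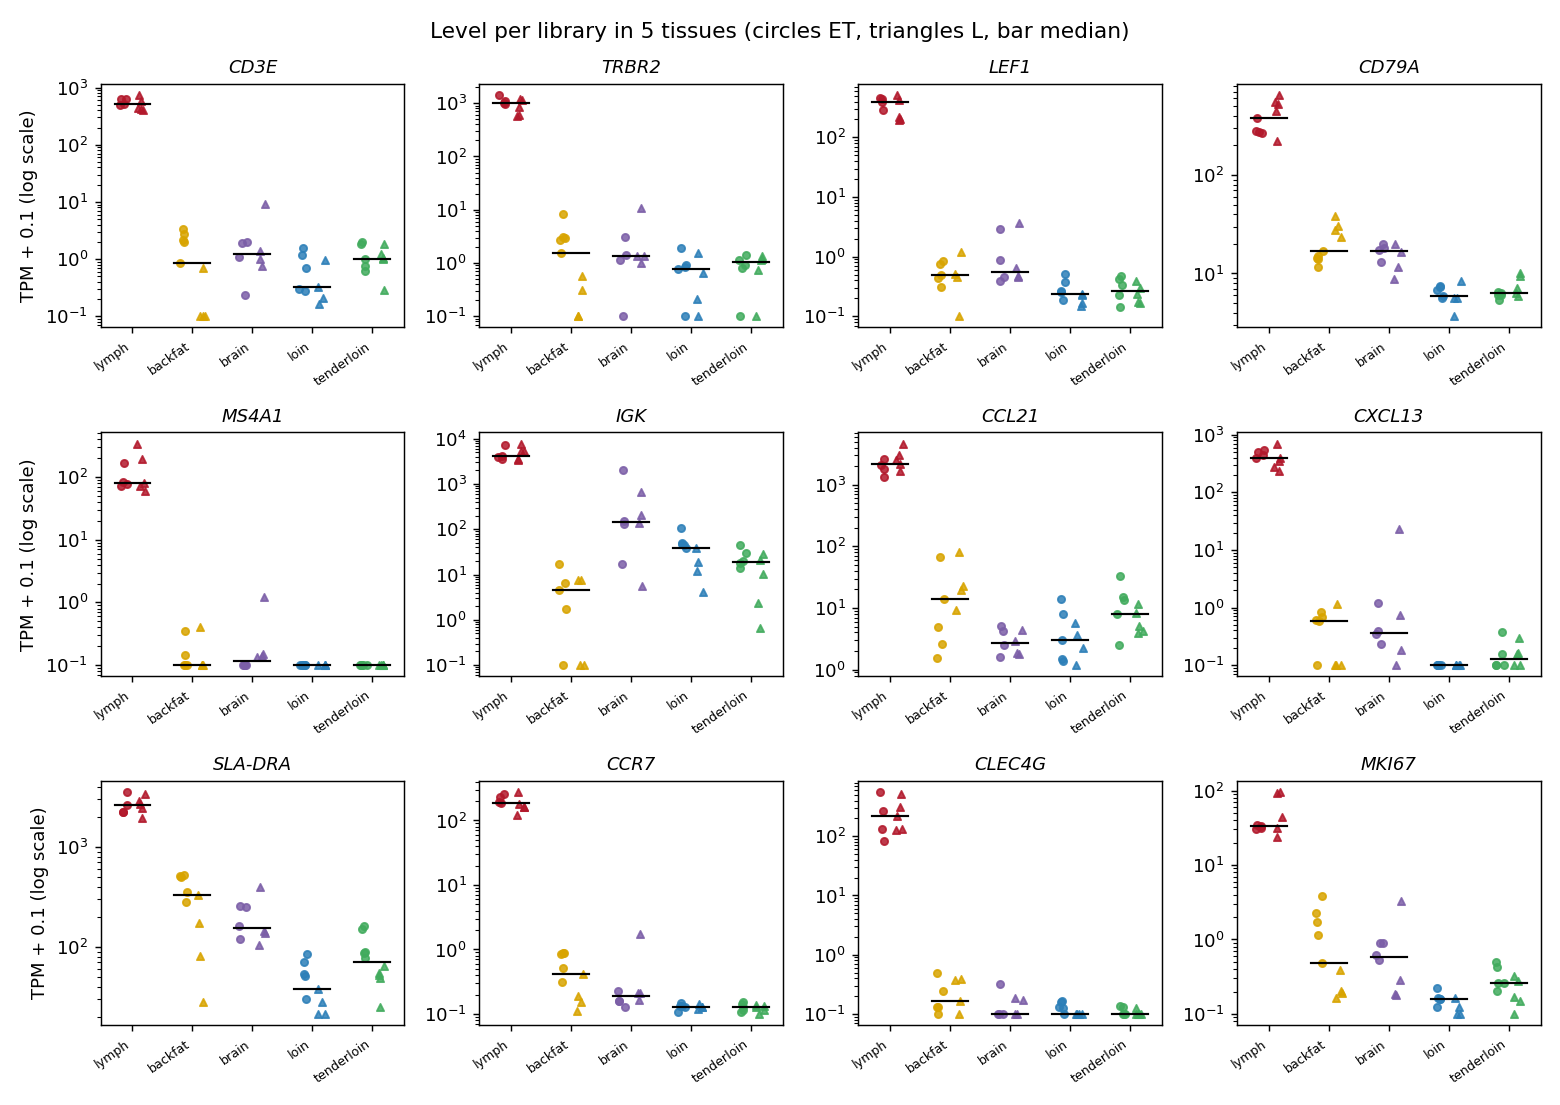
TPM + 0.1 on a log scale for 12 genes in every library used, with 9 lymph, 9 backfat, 8 brain, 9 loin and 10 tenderloin libraries; circles are ET, triangles are L, and bars are medians. The lymph libraries lie above all 36 others for each gene, and the gaps are smallest for the kappa entry IGK, to brain, and for SLA-DRA, to backfat.

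Genes of cytotoxic T cells and natural killer cells were mostly enriched, with 15 of 17 enriched and a median smallest difference of 3.59. GZMH, a granule protease, had 161 to 613 TPM (median 433) in lymph and at most 4.97 TPM elsewhere, with a smallest difference of 7.27 ± 0.20 (adjusted p at most 6.8e-31). CTSW, a protease of cytotoxic lymphocytes, had 251 to 477 TPM (median 338) in lymph and at most 10.4 TPM elsewhere. KLRK1, an activating receptor of these cells, had 65 to 236 TPM (median 73.5) in lymph and at most 8.48 TPM elsewhere. Each of these genes was above all other libraries in every lymph library. GZMB, another granule protease, was lower in lymph than in brain, with 3.08 to 15.3 TPM (median 5.72) in lymph and 12.9 to 31.4 TPM (median 17.3) in brain. GNLY, a granule protein that damages membranes, had 8.06 to 25.7 TPM (median 18.6) in lymph and 0.873 to 127 TPM (median 30.05) in backfat and did not differ past the threshold there. These were the 2 members not enriched.

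B cell genes were enriched in 20 of 22 cases and higher than in all 4 tissues in 21, with a median smallest difference of 4.03. Their summed level was 1517 to 4320.4 TPM (median 2211) in lymph, against at most 223 TPM in backfat, 259 in brain, 52.6 in loin and 57.3 in tenderloin. MS4A1, the surface protein CD20, had 60.5 to 343 TPM (median 80.3) in lymph and at most 1.13 TPM elsewhere, with a smallest difference of 6.58 ± 0.21 against brain (adjusted p at most 1.37e-28). It did not overlap with any other tissue and was 0 in all loin and tenderloin libraries. SPIB, a transcription factor of B cells, had 63.1 to 259 TPM (median 115) in lymph and at most 2.701 TPM elsewhere. PAX5, which fixes B cell identity and was named after its values were seen, had 14.3 to 96.7 TPM (median 31.8) in lymph and at most 3.795 TPM elsewhere. Both were above all other libraries.

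The signalling pair of the B cell receptor was enriched, but its chains differed in how far they stood from brain. CD79A had 221 to 654 TPM (median 379) in lymph and 8.59 to 19.98 TPM (median 16.9) in brain. CD79B, named after its values were seen, had 129.9 to 433 TPM (median 248) in lymph and 5.099 to 189 TPM (median 47.2) in brain, where it overlapped. CR2, the complement receptor CD21 of B cells and follicular dendritic cells, had 47.04 to 378 TPM (median 90.3) in lymph and at most 10.4 TPM elsewhere. FCER2, the IgE receptor CD23, had 24.6 to 268 TPM (median 132) in lymph and at most 1.92 TPM elsewhere, and neither overlapped. EBF1, a B cell transcription factor that fat cells also use, was the member not higher than in all 4 tissues, with 5.25 to 18.9 TPM (median 9.68) in lymph and 17.5 to 113 TPM (median 27.8) in backfat, where lymph was lower.

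Germinal centre genes were enriched in part, 7 of 15, with a median smallest difference of 1.52. GCSAM, a germinal centre signalling protein, had 28.4 to 143 TPM (median 43.9) in lymph and at most 1.49 TPM elsewhere. ELL3, a transcription elongation factor, had 67.7 to 289 TPM (median 138) in lymph and at most 7.94 TPM elsewhere. Every lymph library was above every other library for both. BCL6, the regulator of the germinal centre programme, named after its values were seen, was lower in lymph than in tenderloin, with 10.4 to 37.8 TPM (median 12.9) in lymph and 65.1 to 228 TPM (median 98.5) in tenderloin. HMCES, a DNA repair protein, had 32.1 to 143 TPM (median 47.8) in lymph and 25.6 to 61.4 TPM (median 43.9) in loin. NEIL1, another repair protein, had 16.8 to 66.7 TPM (median 40.6) in lymph and 5.72 to 19.7 TPM (median 9.46) in loin. Both repair genes were higher than in all 4 tissues without reaching the size used for enrichment, and both overlapped with loin.

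Antibody transcripts were among the most abundant of lymph. The kappa entry IGK had 3455 to 7850.5 TPM (median 4094) in lymph and 5.61 to 2009 TPM (median 146) in brain, with a smallest log2 difference of 5.15 ± 0.73. The mu entry IGM had 702 to 4467 TPM (median 1713) in lymph and 4.58 to 357 TPM (median 83.02) in loin, with a smallest difference of 4.43 ± 0.64. The gamma entry IGHG2 had 743 to 2818 TPM (median 1214) in lymph and 2.91 to 588 TPM (median 15.9) in brain, with a smallest difference of 5.96 ± 0.73. None of the 3 overlapped, but single libraries outside lymph also held antibody transcripts, the highest being the brain library of S0326 with 2009 TPM of IGK. Summed over near-identical entries, kappa chains stood at 5025 to 16271 TPM (median 6135) and lambda chains at 1497 to 9946 TPM (median 3221) in lymph. Kappa exceeded lambda in each of the 9 lymph libraries, by 1.64 to 4.02 times. Mu constant entries summed to 1092 to 6217 TPM (median 2565), against 743 to 2818 TPM (median 1214) for the gamma entry. The ratio of mu to gamma ran from 0.556 in S0276 to 4.51 in S0384, and it was also below 1 in S0355, at 0.926.

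The plasma cell list had 7 of 16 members enriched and a median smallest difference of 1.39. JCHAIN, which joins secreted IgM and IgA, had 219 to 889 TPM (median 384.9) in lymph and 8.31 to 369 TPM (median 70.5) in brain, with overlap. MZB1, a chaperone of antibody secretion, had 155 to 448 TPM (median 257) in lymph and at most 24.3 TPM elsewhere, without overlap. The secretory genes XBP1 and SEC11C were lower in lymph than in brain. XBP1, the regulator of secretory cells, named after its values were seen, had 29.4 to 65.9 TPM (median 46.6) in lymph and 89.6 to 157 TPM (median 141) in brain. SEC11C, a signal peptidase subunit, had 86.5 to 161 TPM (median 119) in lymph and 282 to 495 TPM (median 325.5) in brain.

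Genes of antigen presentation on class II molecules, which dendritic cells, macrophages and B cells use to show peptides to helper T cells, were enriched in 11 of 15 cases and higher than in all 4 tissues in 14. Their summed level was 8186 to 18736 TPM (median 12988) in lymph and 298 to 2977 TPM (median 2149) in backfat, the next highest tissue. SLA-DRA had 1960.0 to 3513 TPM (median 2599.8) in lymph and 28.2 to 529 TPM (median 328) in backfat, with a smallest difference of 3.61 ± 0.29 (adjusted p at most 2.26e-14). SLA-DQA1 had 2525 to 5897 TPM (median 4007) in lymph and 50.8 to 739.7 TPM (median 544) in backfat. CIITA, the master regulator of class II genes, had 20.02 to 116 TPM (median 68.9) in lymph and 0.634 to 15.7 TPM (median 6.58) in backfat. Lymph did not overlap with any tissue for these genes.

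Class I presentation, which nearly all cells carry out, had 7 of 15 members enriched and 12 higher than in all 4 tissues. The shares over all genes were 5.03% and 15.7%. B2M, the light chain of class I molecules, had 3309 to 5558 TPM (median 3965) in lymph and 293 to 2153 TPM (median 1689.6) in backfat and, at a smallest difference of 1.62 ± 0.25, was higher but not enriched. PSMB8, a subunit of the immunoproteasome that cuts peptides for class I, was enriched, with 524 to 718 TPM (median 611) in lymph and 34.8 to 148 TPM (median 79.1) in backfat. NLRC5, the transcriptional activator of class I genes, was enriched, with 21.2 to 86.4 TPM (median 36.5) in lymph and 0.349 to 12.8 TPM (median 7.42) in backfat. The 3 genes did not overlap between tissues. The 7 class I heavy chain entries, near-identical and uncertain one by one, summed to 9765 to 14745 TPM (median 13183) in lymph and 901 to 5619 TPM (median 3179) in backfat.

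Dendritic cell genes were enriched in 12 of 18 cases, with a median smallest difference of 2.67. CCL17, a chemokine by which mature dendritic cells draw T cells, had 23.2 to 109 TPM (median 43.2) in lymph and at most 5.46 TPM elsewhere. CCL22, which binds the same receptor, had 9.62 to 42.3 TPM (median 15.5) in lymph and at most 0.539 TPM elsewhere. LAMP3, a marker of mature dendritic cells, had 11.3 to 44.8 TPM (median 22.1) in lymph and at most 0.994 TPM elsewhere. None of these overlapped. XCR1, the receptor of cross-presenting dendritic cells, named after its values were seen, had 2.28 to 14.8 TPM (median 5.97) in lymph and at most 0.932 TPM elsewhere. CD209, a lectin of dendritic cells and macrophages, had 73.9 to 414 TPM (median 157) in lymph and 47.1 to 456 TPM (median 128) in backfat and did not differ past the threshold there.

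Macrophage genes were enriched in 4 of 26 cases, against 5.03% of all genes tested, with a median smallest difference of 0.61. The summed level of the macrophage list, 2155 to 4900.2 TPM (median 2875) in lymph, overlapped with 799.8 to 4501 TPM (median 1677) in backfat. MARCO, a scavenger receptor, had 23.9 to 123 TPM (median 39.2) in lymph and at most 9.07 TPM elsewhere. TIMD4, a receptor for dying cells, had 12.8 to 65.5 TPM (median 44.3) in lymph and at most 3.54 TPM elsewhere. SIGLEC1, the sialic acid receptor of sinus macrophages, had 19.99 to 55.1 TPM (median 26.5) in lymph and at most 3.997 TPM elsewhere. With C1QC, a chain of complement C1q at 472 to 1399.9 TPM (median 649) in lymph and 74.1 to 416 TPM (median 168) in backfat, these were the enriched members, and all 4 lay above every other library. In ET libraries alone C1QC was no longer enriched, with a smallest difference of 1.499. CD163, the haemoglobin scavenger receptor, named after its values were seen, was lower in lymph than in backfat, with 7.38 to 32.7 TPM (median 18.3) in lymph and 15.4 to 137 TPM (median 39.7) in backfat. Of 6 tested granulocyte and mast cell genes 0 were enriched, against 5.03% of all genes tested, and so few members cannot show a shortfall. S100A8, an abundant protein of neutrophils named after its values were seen, had 0.181 to 3.23 TPM (median 0.495) in lymph and 0 to 30.9 TPM (median 4.78) in backfat.

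Among genes of the stroma that lays out the tissue, 8 of 21 were enriched and 3 were lower than in all 4 tissues, with a median smallest difference of 0.65. Over all genes tested, 5.03% were enriched and 8.3% were lower than in all 4 tissues. CCL21, which guides T cells and dendritic cells into the T zone, had 1309.8 to 4652 TPM (median 2203) in lymph, 1.44 to 80.8 TPM (median 14.03) in backfat, 1.496 to 4.98 TPM (median 2.57) in brain, 1.08 to 13.9 TPM (median 2.96) in loin and 2.41 to 32.8 TPM (median 7.98) in tenderloin, with a smallest difference of 7.25 ± 0.46 (adjusted p at most 1.66e-17). CCL19, which binds the same receptor, had 894 to 2338 TPM (median 1704) in lymph and 19.2 to 459.6 TPM (median 216) in backfat. CXCL13, which draws B cells into follicles, had 231 to 706 TPM (median 397) in lymph, was 0 in every loin library and was highest outside lymph in the brain library of S0384, at 23.2 TPM. The lymph libraries were above all others for these chemokines. TNFSF11, a cytokine of the cells that organise lymphoid tissue, had 21.4 to 39.6 TPM (median 25.2) in lymph and at most 0.546 TPM elsewhere. IL7, the survival factor made by reticular cells, named after its values were seen, had 8.59 to 14.8 TPM (median 10.5) in lymph and at most 0.787 TPM elsewhere. CLU, a secreted chaperone that follicular dendritic cells make, was lower in lymph than in brain, with 286 to 604 TPM (median 348) in lymph and 1348 to 3538 TPM (median 1969.7) in brain.

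Vessel genes had 2 of 21 members enriched, 9.52% against 5.03% of all genes tested, and a median smallest difference of -1.72. With so few members, that share does not set the list apart from all genes. The summed level of the vessel list was 278 to 1170.4 TPM (median 519) in lymph and 1254 to 13611 TPM (median 7756) in backfat, without overlap. FABP4 is on both this list and the adipocyte list, so the backfat sum is not one of vessels alone. The median log2 difference of the members from backfat was -1.24. CLEC4G, a lectin of sinus-lining cells, had 81.9 to 549 TPM (median 219) in lymph and at most 0.3896 TPM elsewhere, with a smallest difference of 7.57 ± 0.21 (adjusted p at most 9.78e-30). FUT7, the enzyme that makes sugar ligands of selectins, had 13.2 to 21.6 TPM (median 17.7) in lymph and at most 1.299 TPM elsewhere. This enriched pair was above all other libraries. LYVE1, a marker of lymphatic endothelium, had 14.5 to 84.6 TPM (median 19.7) in lymph and 5.83 to 120.0 TPM (median 50.6) in backfat and did not differ past the threshold there. PROX1, the regulator of lymphatic identity, named after its values were seen, was lower in lymph than in brain, with 1.38 to 4.71 TPM (median 2.18) in lymph and 3.91 to 21.9 TPM (median 14.7) in brain.

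Homing chemokines, their receptors and adhesion molecules had 22 of 32 members enriched and 29 higher than in all 4 tissues, with a median smallest difference of 3.37. Over all genes the shares were 5.03% and 15.7%. CCR7, the receptor for CCL19 and CCL21, had 120.5 to 273 TPM (median 184) in lymph and at most 1.61 TPM elsewhere, with a smallest difference of 7.20 ± 0.13 (adjusted p at most 3.84e-35). CXCR5, the receptor for CXCL13, named after its values were seen, had 12.1 to 50.6 TPM (median 28.6) in lymph and at most 4.77 TPM elsewhere. Neither of these receptors overlapped with another tissue. ITGB7, an integrin chain of gut-homing lymphocytes, had 135 to 209.8 TPM (median 160.0) in lymph and at most 5 TPM elsewhere. CCL20, a chemokine of epithelium near lymphoid follicles, had 29.05 to 152 TPM (median 62.1) in lymph and was 0 in every backfat, loin and tenderloin library. CXCR4, a widely used chemokine receptor, was higher but not enriched, with 136 to 398 TPM (median 201) in lymph and 17.4 to 105 TPM (median 66.2) in brain. S1PR1, by which lymphocytes leave, was also higher without enrichment and overlapped with backfat, with 70.4 to 148 TPM (median 95.5) in lymph and 5.22 to 98.6 TPM (median 50.1) in backfat.

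Cytokines and their receptors had 20 of 28 members enriched, with a median smallest difference of 2.70. LTB, the tumour necrosis factor family ligand that maintains lymphoid stroma, had 201 to 381 TPM (median 259.8) in lymph and at most 11.6 TPM elsewhere. IL2RG, the chain shared by receptors of several lymphocyte cytokines, had 265 to 387 TPM (median 341) in lymph and at most 25.6 TPM elsewhere. JAK3, the kinase that signals from IL2RG, named after its values were seen, had 133 to 243 TPM (median 167) in lymph and at most 9.399 TPM elsewhere. None of these overlapped.

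Antigen receptor signalling genes were enriched in 30 of 41 cases, with 40 higher than in all 4 tissues and 35 above all 36 other libraries. Over all genes tested the shares were 5.03%, 15.7% and 7.28% in the same order. PTPRC, the phosphatase CD45 of white blood cells, had 410.3 to 1121 TPM (median 804) in lymph and at most 17.8 TPM elsewhere, with a smallest difference of 7.56 ± 0.25 (adjusted p at most 3.02e-27). LCK, the kinase that starts T cell receptor signalling, had 161 to 340.1 TPM (median 241.9) in lymph and at most 2.67 TPM elsewhere. All lymph libraries were above all others for both, and so they were for ZAP70, the kinase after LCK, which was named after its values were seen and had 78.9 to 131 TPM (median 91.9) in lymph and at most 9.396 TPM elsewhere. FYN, a kinase that neurons also use, was higher but not enriched, with 71.2 to 112 TPM (median 104) in lymph and 39.8 to 65.6 TPM (median 56.2) in brain. PLCG1, a widely expressed phospholipase, was likewise higher but not enriched, with 48.3 to 109 TPM (median 79.4) in lymph and 27.3 to 84.5 TPM (median 35.9) in brain. STAT5A, a transcription factor, had 281 to 407 TPM (median 323) in lymph and 296 to 412 TPM (median 349.6) in loin and did not differ past the threshold there.

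Leukocyte cytoskeleton genes had 28 of 32 members enriched and all 32 higher than in all 4 tissues, with a summed level of 6864 to 10773 TPM (median 8869.7) in lymph and 336 to 1196 TPM (median 565) in backfat. CORO1A, an actin regulator, had 642 to 1197 TPM (median 767) in lymph and at most 23.2 TPM elsewhere. RAC2, the GTPase of blood cells, had 605 to 1056 TPM (median 756) in lymph and at most 26.4 TPM elsewhere. ARHGDIB, an inhibitor of such GTPases, had 1443 to 4379 TPM (median 1854) in lymph and 64.9 to 487 TPM (median 164) in backfat. Lymph overlapped with no other tissue for these. Lymphoid transcription regulators had 14 of 33 members enriched. IKZF1, the regulator Ikaros, had 63.9 to 123 TPM (median 88.3) in lymph and at most 4.91 TPM elsewhere. RUNX3, a regulator of cytotoxic T cells, had 39.7 to 63.6 TPM (median 42.2) in lymph and at most 1.29 TPM elsewhere. ID3, an inhibitor of lymphoid factors, was lower in lymph than in backfat, with 85.01 to 195 TPM (median 159) in lymph and 73.1 to 321 TPM (median 216) in backfat. The plot of shares by list sets these counts side by side with that over all genes.

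**Figure D3:**
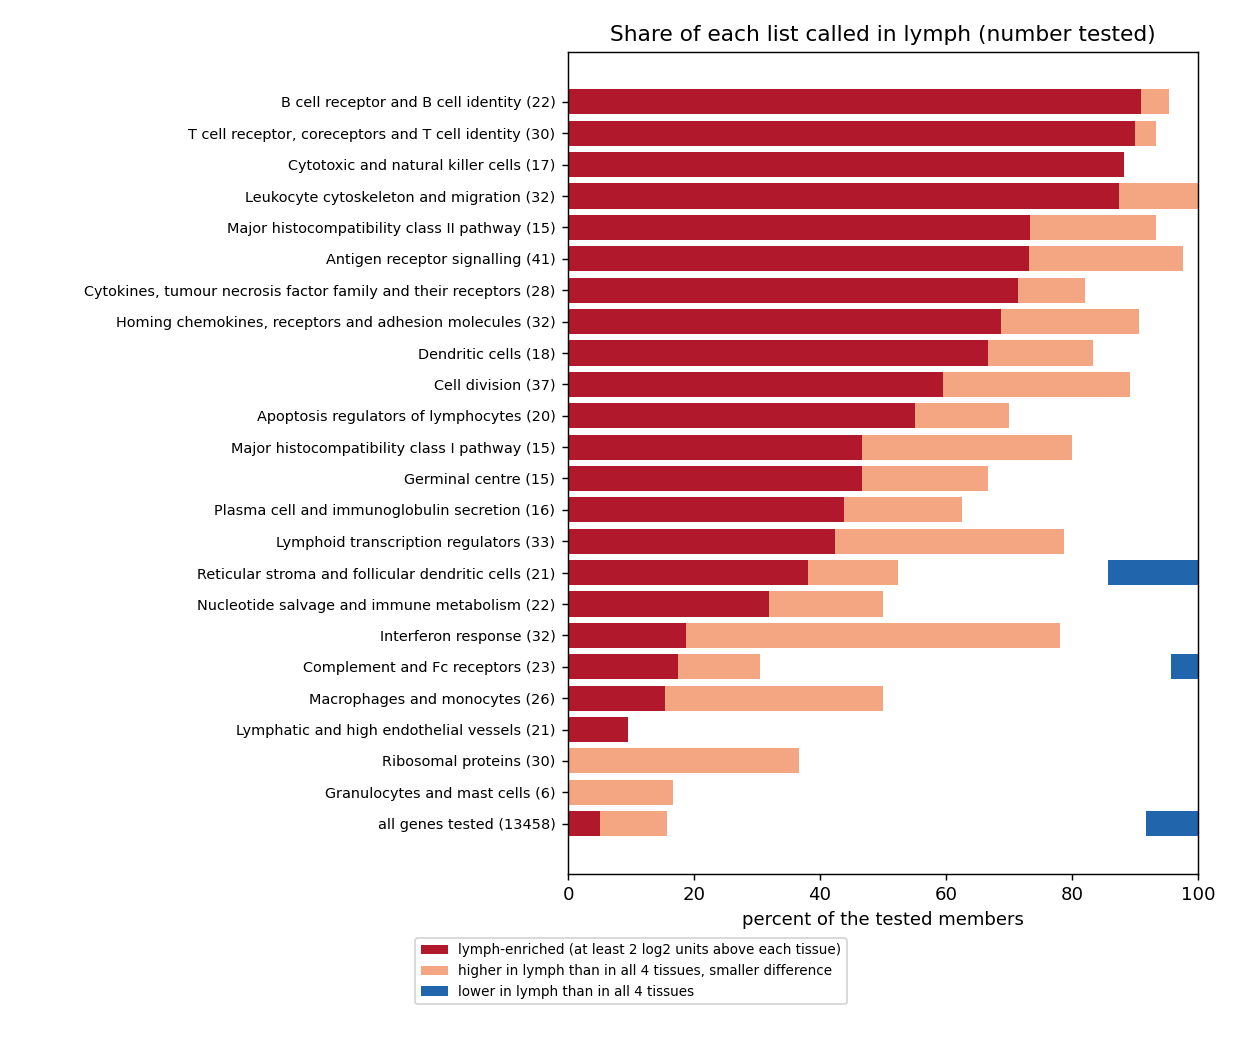
Share of the tested members of 23 lists that were lymph-enriched (red) or higher in lymph than in all 4 tissues by less (pale), with those lower in lymph than in all 4 tissues (blue) drawn from the right; the number tested is in brackets. B cell, T cell and cytotoxic lists are at the top, and ribosomal protein and granulocyte lists have no enriched member, against 5.03% of all 13458 genes.

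Cell division genes were enriched in 22 of 37 cases and higher than in all 4 tissues in 33, against 5.03% and 15.7% of all genes. MKI67, a protein of dividing cells, had 23.5 to 94.3 TPM (median 33.4) in lymph and at most 3.69 TPM elsewhere. CCNB1, the cyclin of mitosis, had 7.93 to 65.5 TPM (median 30.1) in lymph and at most 1.59 TPM elsewhere, and neither overlapped. STMN1, a microtubule regulator also used by neurons, was lower in lymph than in brain, with 175 to 527 TPM (median 364) in lymph and 658 to 1296 TPM (median 794) in brain. Regulators of lymphocyte survival were enriched in 11 of 20 cases. BCL2A1, an inhibitor of cell death, had 74.8 to 178 TPM (median 124) in lymph and at most 15.7 TPM elsewhere. GIMAP7, a GTPase of lymphocytes, had 71.5 to 173 TPM (median 102) in lymph and at most 6.36 TPM elsewhere. BAX, a promoter of cell death that most cells make, was lower in lymph than in brain, with 35.8 to 61.6 TPM (median 43.6) in lymph and 53.8 to 85.6 TPM (median 72.1) in brain.

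Interferon response genes were higher than in all 4 tissues in 25 of 32 cases, against 15.7% of all genes tested. They were enriched in 6 cases, or 18.75%, against 5.03%. TRIM22, an antiviral protein, was enriched, with 32.05 to 169 TPM (median 53.7) in lymph and 2.58 to 21.3 TPM (median 8.08) in brain. MX1, another antiviral protein, had 36.7 to 589 TPM (median 138) in lymph and 122 to 360.1 TPM (median 182) in brain and did not differ past the threshold there. Complement and Fc receptor genes had 4 of 23 members enriched, against 5.03% of all genes tested, and 1 lower than in all 4 tissues, against 8.3%. C7, a pore-forming complement protein, was enriched, with 116 to 445 TPM (median 255) in lymph and 9.79 to 70.7 TPM (median 39.9) in brain. C1S, a starter protease, was lower in lymph than in backfat, with 133 to 363 TPM (median 259.8) in lymph and 352 to 1387 TPM (median 609.6) in backfat. Metabolic genes of immune cells had 7 of 22 members enriched, against 5.03% of all genes tested. IDO1, which breaks down tryptophan, was one of them, with 6.02 to 29.9 TPM (median 13.7) in lymph and at most 2.16 TPM elsewhere. Of 30 ribosomal protein genes 0 were enriched, against 5.03% of all genes tested, and 11 were higher than in all 4 tissues, against 15.7%. Their summed level was 56943 to 93110.4 TPM (median 77681) in lymph and 39419 to 109598 TPM (median 55399.8) in backfat, with overlap.

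The 101 genes at least 2 log2 units lower in lymph than in every other tissue had varied roles. APOD, a lipid carrier, had 0.6901 to 3.16 TPM (median 1.76) in lymph, 209 to 679 TPM (median 487) in backfat, 29.9 to 206 TPM (median 84.1) in brain, 30.8 to 104 TPM (median 57.03) in loin and 28.9 to 121 TPM (median 58.5) in tenderloin, and its log2 difference was -4.57 or lower against each (adjusted p at most 2.51e-18). GPX3, a secreted peroxidase, had 2.75 to 38.6 TPM (median 7.505) in lymph and at least 90.6 TPM in every other library. SLC6A8, the creatine transporter, had 0.936 to 3.68 TPM (median 1.61) in lymph and at least 16.7 TPM in every other library. Each of these was lower in every lymph library than in any other library. In 78 of the 101 genes the highest lymph library lay below all 36 others, against 281 such genes among all those tested (2.09%). That count, too, largely follows from the selection of the 101 genes on the same libraries. Under median-ratio scaling 120 genes were called lower by this size, of which 75 were among the 101.

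Markers of muscle, of fat and of neurons, glia and pituitary were low in lymph, as the plot of marker lists by library shows. Other lists in the plot were not all low. Fibroblast and matrix markers summed to 343 to 615 TPM in lymph, against 327 to 1223 TPM in brain and 2118 to 40231 TPM in backfat. Spleen markers summed to 48.2 to 183 TPM, against 22.9 to 39.6 TPM in brain and 263 to 812 TPM in backfat. Kidney markers summed to 5.79 to 16.5 TPM, against 8.07 to 51.1 TPM in brain and at most 2.86 TPM in tenderloin. None of the 18 muscle, 14 adipocyte and 13 neural and pituitary genes tested was enriched. These genes mark the compared tissues themselves, so that count largely follows from the choice of genes. Skeletal muscle markers summed to 28.8 to 99.6 TPM (median 53.8) in lymph, against 90991 to 204353 TPM (median 140475) in loin and 79817 to 145698 TPM (median 120379) in tenderloin. Adipocyte markers summed to 50.1 to 125 TPM (median 68.1) in lymph, against 958 to 26227 TPM (median 11766) in backfat. Neuronal, glial and pituitary markers summed to 47.97 to 67.4 TPM (median 57.4) in lymph, against 25389 to 84847 TPM (median 54689) in brain. The fat hormone ADIPOQ reached at most 0.0775 TPM in lymph, and the muscle creatine kinase CKM had a lymph median of 0.391 TPM and a highest value of 11.7 TPM. Both were named after their values were seen. Of 10 tested epithelial genes 0 were enriched, against 5.03% of all genes tested, and so few members cannot show a shortfall. EPCAM, the general surface marker of epithelium, had 1.16 to 3.52 TPM (median 2.104) in lymph and 266 to 438 TPM (median 370.4) in brain. Haemoglobin beta (HBB) was lower in lymph than in all 4 tissues, with 1.07 to 8.32 TPM (median 3.95) in lymph and 5.46 to 307 TPM (median 41.8) in tenderloin. AIRE, a regulator of the thymus, was lower in lymph than in brain, with 2.04 to 8.695 TPM (median 2.48) in lymph and 2.63 to 45.6 TPM (median 17.02) in brain. RAG1 and DNTT, which mark immature lymphocytes, were not analysed here.

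**Figure D4:**
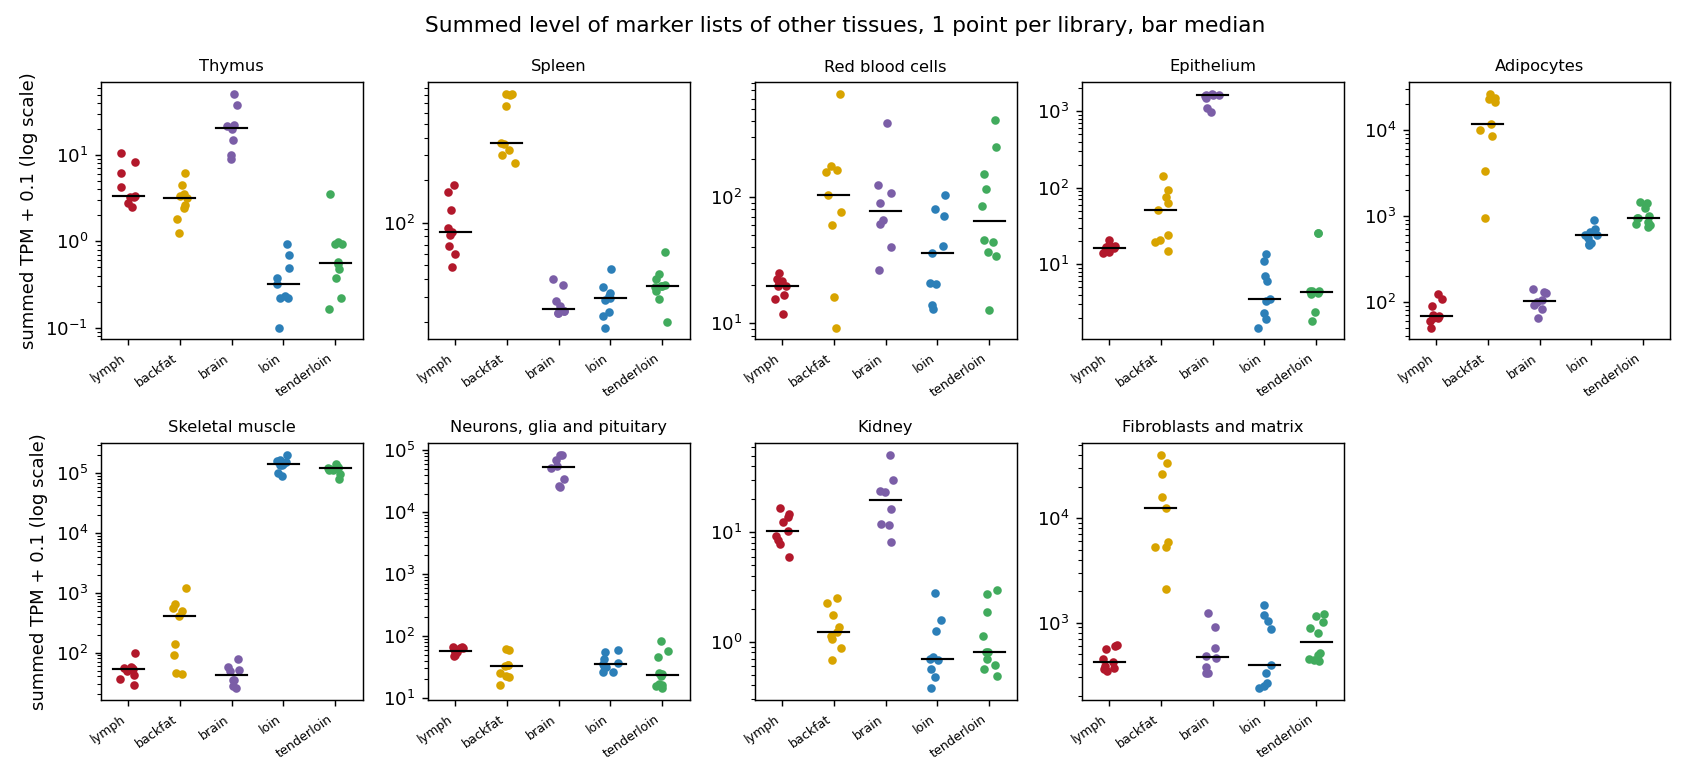
Summed TPM + 0.1 on log scales for 9 marker lists of other tissues and cells, 1 point per library, with lymph leftmost and bars at the medians. Lymph lies far below loin and tenderloin for muscle markers and below backfat for adipocyte markers, and its red blood cell markers sum to 11.8 to 25.1 TPM.

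The lymph libraries differed from each other in the balance of these lists, as the plot of 9 lists by lymph library shows. Among 671 enriched genes with a lymph mean of at least 5 TPM, the highest library exceeded the lowest by a median of 2.95 times, by at most 2 times in 121 genes and by more than 5 times in 128. PSMB8 had the smallest SD of log2 values of them, with 524 to 718 TPM (median 611). RSAD2, an antiviral enzyme, was among the most variable, with 18.9 to 436 TPM (median 47.3) and its highest value in S0276. T cell genes summed highest in S0276, at 6294 TPM, and lowest in S0385, at 3037 TPM. B cell genes summed highest in S0377, at 4320.4 TPM, and lowest in S0355, at 1517 TPM. The library richest in T cell genes was therefore not the richest in B cell genes.

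Germinal centre genes summed highest in S0349, at 979 TPM against a median of 439.8 TPM. Cell division genes were also highest there, at 2883 TPM against a median of 1549 TPM. The S0385 library had the lowest sums of the T cell, cytotoxic and cell division lists. It had the highest sums of the plasma cell list, 17146 TPM against a median of 7605, and of the vessel list, 1170.4 TPM against a median of 519. Single entries weighed heavily in both sums. The antibody entries IGK and LAC held 7850 and 7316 TPM of the plasma cell sum in S0385, and CLEC4G held 525 TPM of the vessel sum. Interferon response genes had the widest range of the 23 cell type and function lists, 6.81-fold, with 8688 TPM in S0276 and 6589 TPM in S0377 at the upper end and 1275 TPM in S0242 at the lower. These are values of single libraries, with no test.

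**Figure D5:**
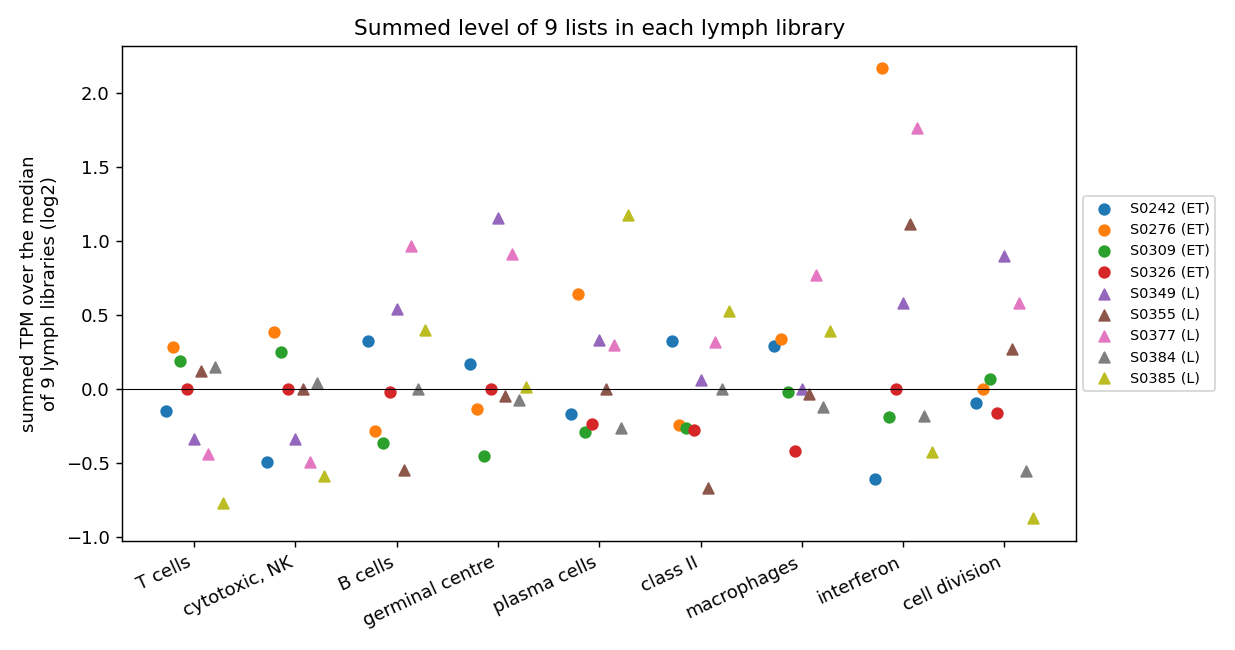
Summed TPM of 9 lists in each lymph library as a log2 ratio to the median of the 9 libraries, with circles for ET and triangles for L animals, each animal in its own colour. S0385 is lowest for the T cell and cell division lists and highest for the plasma cell list, which holds the antibody entries IGK and LAC. S0349 is highest for the germinal centre and cell division lists, and the interferon list spreads most.

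Most lymph-enriched genes were enriched in each type of minipig on its own. In ET libraries alone 622 genes were enriched, 593 of them among the 677, and in L libraries alone 710, 654 of them among the 677. Within lymph, ET and L animals differed in 8 genes (0.0594% of those tested), and the size of the lymph difference depended on type in 2 (0.0149%). GP2, a membrane glycoprotein known from the pancreas and from antigen-sampling cells of the gut, had 7.42, 2.98, 2.77 and 5.005 TPM in ET lymph libraries, against 18.7, 11.03, 29.3, 4.17 and 13.9 TPM in L lymph libraries. The types overlapped through the L library of S0384, and the log2 difference was -1.42 ± 0.24 (SE, adjusted p = 0.00829). TTC7B had 4.94, 2.32, 3.06 and 4.06 TPM in ET and 9.499, 5.37, 6.57, 7.09 and 12.2 TPM in L lymph libraries. It did not overlap, and the log2 difference was -0.98 ± 0.20 (adjusted p = 0.0384). These were also the genes with the called interaction (adjusted p = 0.0485 each).

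CCR9, a gut-homing receptor, had 9.03, 14.96, 14.9 and 6.82 TPM in ET lymph libraries, against 2.56, 8.52, 7.05, 6.72 and 4.66 TPM in L lymph libraries. Its values overlapped, and it was higher in ET by 0.86 ± 0.17 on the log2 scale (adjusted p = 0.0219). PTPN22, a phosphatase that restrains T cell receptor signalling, had 18.4, 25.5, 16.97 and 15.9 TPM in ET, against 10.4, 13.01, 15.8, 10.2 and 6.02 TPM in L lymph libraries. It did not overlap and was higher in ET by 0.77 ± 0.15 (adjusted p = 0.014). The entry CNIPF was higher in ET by 0.94 ± 0.17 (adjusted p = 0.014). BHLHA15, a regulator of secretory cells, fell in ET against L by 0.82 ± 0.16 (adjusted p = 0.0163), with ET and L values that overlapped. The histone entries H2A2B and H2A3, near-identical to others and uncertain, fell by 1.42 ± 0.27 and 1.70 ± 0.32 (adjusted p = 0.014 each). The lists of ET and L genes rest on few libraries: without S0385 lymph 1 gene was called between the types, without S0276 lymph 2, and without S0355 lymph 56. The interaction count was 0 without any one of 28 libraries, 27 without S0355 lymph, 17 without S0349 backfat, and 9 with the animal as a paired block.

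The enriched genes shared several features of origin and annotation. The tissue of assembly is not independent of the comparison, since a transcript is assembled from a tissue in which it is expressed. Transcripts of enriched genes came from lymph assemblies in 41.2% of cases, against 12.9% of the transcripts of all genes tested. The share from spleen assemblies was 25.7%, against 8.54%, and that from brain assemblies was 3.66%, against 17.6%. The median identity of a transcript to its Swiss-Prot protein was 83.1% for enriched genes, against 92.7% for all tested, so that an entry's name is a looser description of an enriched gene. A predicted membrane helix was present in 38.4% of enriched genes and 30.4% of all tested. Of 169 tested genes annotated to the adaptive immune response, 104 were enriched. The annotation plasma membrane was held by 41.7% of enriched genes, against 21.4% of all tested, and the annotation mitochondrion by 3.10%, against 8.97%. These annotations were chosen after the values had been seen, and no test was made. Just above the threshold of 2 log2 units lay BTG1, KLK, CMPK2 and HA1B, with smallest differences of 2.002 to 2.017. The nearest genes under it were EDEM1, PD2R, CDCA5, SATB1 and SLD5, the lowest at 1.976.

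More genes were detected in lymph than in loin and tenderloin, and fewer than in brain. The number of genes detected at 1 TPM or more was 11867 ± 261 in lymph (SD, n = 9), against 11709 ± 407.6 in backfat (n = 9), 12948 ± 127 in brain (n = 8), 10411 ± 183 in loin (n = 9) and 10681 ± 222 in tenderloin (n = 10). Lymph had 1456 genes more than loin and 1186 more than tenderloin (two-sided exact permutation tests, adjusted p = 8.23e-05 each, from the smallest p that these permutations can give) and differed from brain by -1081 genes (adjusted p = 0.00011). The difference of 158 from backfat did not pass the threshold (adjusted p = 0.356). The permutations took neither the animal nor the type of a library into account. The 10 most abundant genes took 12.9% ± 1.82 of TPM in lymph (n = 9), against 19.01% ± 5.15 in backfat, 14.2% ± 3.84 in brain, 25.1% ± 3.12 in loin and 28.5% ± 2.84 in tenderloin. That share was lower in lymph than in backfat (exact permutation, adjusted p = 0.00433), loin and tenderloin (adjusted p = 8.23e-05 each), and the difference from brain did not pass the threshold (adjusted p = 0.418).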

How the data were processed

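RNA of 5 tissues from 10 minipigs (5 ET, 5 L) was extracted with TRIzol and sequenced with stranded libraries, per the labels' protocols. The submitters' processing notes name Trimmomatic 0.36, Salmon 1.10.0 and the pig build Sscrofa11.1, whose role is not given. The authors deposited TPM for 57085 transcripts assembled from 10 tissues, each library summing to 1000000, and an annotation with each transcript's best Swiss-Prot match. No read counts are given, so depth is unknown, a value of 0 is a value listed as 0, and no counting interval can be had.

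TPM were summed over the 32183 transcripts with an animal Swiss-Prot match at E of 1e-10 or lower, which gave 14425 genes. Left out were 20601 transcripts with no match, 1864 with a weaker one, 2394 of repeats or retroviruses and 43 not of animals; they hold 12.9% to 19.2% of TPM in lymph. Gene names are those of the closest protein, with a median identity of 92.9%, and near-identical families can be split or merged.

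Genes with a mean of at least 1 TPM over the 45 libraries (13458) entered a limma fit (version 3.58.1, R version 4.3.3) of log2(TPM + 1), with a mean for each of the 10 tissue and type groups and a trended variance, so that all groups share an estimate of spread. Each lymph contrast averages the types equally. P-values were adjusted by Benjamini-Hochberg over all genes tested, with a threshold of 0.05. Fold changes are on the log2(TPM + 1) scale, which understates the change of low genes. Other scripts used Python 3.11.15, scipy 1.17.1 and pandas 2.3.3, and the fit was tested on simulated data. Measures of whole libraries were set against each tissue with an exact permutation test, two-sided, and adjusted over the 4 tissues.

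By their labels, libraries of the same animal number come from the same animal. Deviations from the group means had a median r of 0.136 over 33 pairs of a lymph and another library of the same animal (range -0.123 to 0.41). Over 128 pairs of different animals of the same type it was -0.0451 (range -0.314 to 0.265). The ranges overlap, and centring on small groups itself lowers r between different animals, so these values do not establish the identity of animals. The main fit has no animal term, and a fit with the animal as a block is an alternative.

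Genes named were, by rule, the 20 enriched genes highest in lymph, the 20 with the largest smallest difference, up to 6 enriched and 3 other members of each list, the 10 with the largest lower difference, those differing between types, those next to the threshold and a few fixed markers. A further 54 were picked after their values were seen. The members, the 32 lists (713 symbols, 645 matched) and the tests were chosen with earlier results of these data known. Other pseudocounts, filters, scaling, match thresholds, sizes, left-out libraries and variance settings were tried. No sequence is printed, and nothing was computed from read positions. Some genes are not reported here.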

Additional observations from a re-analysis of the deposited data

Results flagged for a closer look

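Among 177 enriched genes chosen for naming, 18 had 1 lymph library that stood apart from the other 8, by the gap to the next library relative to the range of TPM. For normally distributed values chance would give about 1 in 20. All 18 stood apart at the high end, so that rate may not hold for TPM and the count was not judged against it. Several of the 18 genes share a library and may vary together, so they are not independent flags. In the library of S0276 these were CCL20 at 152 TPM, GREM1 at 79.5 TPM, GZMA at 87.3 TPM, KLRK1 at 236 TPM and SH2D1A at 100.9 TPM. In S0377 they were the B cell kinase BLK at 105 TPM, IKZF3 at 33.1 TPM, MS4A1 at 343 TPM and PDCD1 at 63.5 TPM. In S0385 they were the kappa entry KACB at 5990.3 TPM, the lambda entry LAC at 7316 TPM and MADCAM1, the vessel ligand of gut-homing lymphocytes, at 34.9 TPM. In S0384 they were FADS3 at 1169.7 TPM, SLC6A3 at 69.8 TPM and TRBC2 at 265 TPM. In S0242 they were ERAP1 at 63.4 TPM and UBD at 296 TPM, and in S0349 RGS13, a germinal centre signalling regulator, at 32.8 TPM.

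The lymph difference of GP2 from the other tissues differed between ET and L minipigs by -1.39 on the log2 scale (SE 0.27, limma, adjusted p = 0.0485). That of TTC7B had a value of -1.22 (SE 0.23, adjusted p = 0.0485). Leaving out any one of 28 libraries left no gene called.

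The lymph library of S0235, which was not compared, had 2156 TPM of UMOD, against at most 4.61 TPM in the 9 lymph libraries used.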

How the results depend on the processing

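The totals of genes called against each single tissue stayed within 1.5 times under all 59 settings, those that leave out 1 of the 45 libraries included. Their higher and lower parts moved further under median-ratio scaling, with 4709 higher than brain (2843 as scaled here), 5302 higher and 4977 lower than loin (8010 and 2859), and 5314 higher and 4902 lower than tenderloin (8314 and 2698). Leaving out 1 library moved the enriched count between 652 and 685 and the lower count between 91 and 107. It moved the pairwise counts between 9465 and 9874 against backfat, 9817 and 10238 against brain, 10677 and 10976 against loin, and 10816 and 11090.0 against tenderloin. The count between ET and L lymph moved between 1 and 56, and the type dependence of the lymph difference between 0 and 27. The enriched count was 404 with a pseudocount of 5, 1207 with a size of at least 1 log2 unit and 387 with at least 3, and was within 1.5 times otherwise. The lower count was 246 with a pseudocount of 0.1 and 20 with 5, and 464 and 19 with sizes of 1 and 3 log2 units. The count between ET and L lymph was 0 with a pseudocount of 0.1, 29 with 5, 13 without a filter, 0 with a mean of at least 5 TPM, 5 under median-ratio scaling and 3 with all 50 libraries. The count of type dependence was 1 with a pseudocount of 0.1, 8 with 5, 5 without a filter, 5 with at least 1 TPM in 4 libraries, 1 with a mean of at least 5 TPM, 1 with all 50 libraries and 0 with 1 transcript per gene, with matches at E of 1e-50 or lower, or without the variance trend. The cause of these moves was not tested beyond what the settings change by construction. With the animal as a replicate block, 682 genes were enriched, 674 of them among the 677, 95 were lower, and 9 depended on type; the type contrast itself cannot be estimated there. The gap in genes detected between lymph and backfat was 202 at a minimum of 0.1 TPM (exact permutation, adjusted p = 0.0278), past the threshold it missed at 1 TPM. Of 187 genes chosen for naming and called enriched or lower, 35 lost the call under some setting, 7 of them when a library was left out (among them 1B03, BHLHA15, BTG1, CMPK2, HA1B and KLK), 22 others gained one, and 0 changed direction. In ET libraries alone, C1QC, CD74, CFP and SLA-DRB1 were among those that lost it. Depth is unknown, so whether low genes were limited by it could not be seen.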

Other observations

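Of the 677 enriched genes, 346 were on no list and in no receptor or antibody family. All genes named here except APOR and NPHS1 were picked after their values were seen, and their values are given without a test of their own beyond the 4 contrasts. FCMR, the receptor for the constant part of IgM, had 96.4 to 244 TPM (median 152) in lymph and at most 2.53 TPM elsewhere. PTPRCAP, which binds the phosphatase CD45, had 471 to 975 TPM (median 685) in lymph and at most 15.1 TPM elsewhere. CD69, an early marker of activated lymphocytes, had 66.1 to 215 TPM (median 127) in lymph and at most 1.65 TPM elsewhere. All 3 were above every other library in every lymph library. RHOH, a GTPase of blood cells, had 82.8 to 134 TPM (median 102) in lymph and at most 4.32 TPM elsewhere. SRGN, the proteoglycan of secretory granules, had 496 to 1151 TPM (median 647) in lymph and 20.7 to 226 TPM (median 142) in backfat. LAPTM5, a lysosomal protein of blood cells, had 407.6 to 782 TPM (median 526) in lymph and 24.2 to 155 TPM (median 45.9) in backfat. These, too, did not overlap.

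Further enriched genes on no list were of varied kinds. The entry APOR, whose closest protein was apolipoprotein R of the pig, had 43.02 to 358 TPM (median 129) in lymph and at most 0.0882 TPM elsewhere. SLC6A3, the dopamine transporter, had 15.9 to 69.8 TPM (median 24.7) in lymph and at most 0.434 TPM elsewhere. TAC3, the neuropeptide neurokinin B, had 7.58 to 179 TPM (median 44.7) in lymph and at most 0.828 TPM elsewhere. None of these overlapped, and the identity to the named protein was 100% for TAC3 and 90.7% for SLC6A3, against 56.8% for APOR. That is low for a match of a pig transcript to a pig protein, so the APOR entry may stand for a related gene. KLK7, a protease known from skin, had 20.2 to 78.8 TPM (median 51.2) in lymph and at most 0.418 TPM elsewhere. The entry TRYP, a trypsin, had 11.06 to 30.4 TPM (median 25.5) in lymph and at most 0.612 TPM elsewhere. FADS3, a fatty acid desaturase, had 277 to 1169.7 TPM (median 528) in lymph and 2.75 to 57.5 TPM (median 30.7) in backfat. Each of them was above every other library in all lymph libraries.

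UBD, a ubiquitin-like protein, differed between animals in all tissues. It was lowest of the 9 lymph libraries in S0349, at 4.29 TPM. S0349 had 0.239 TPM in brain and 0.182 TPM in loin, the lowest of the libraries used there, but was not the lowest in backfat, at 0.996 TPM, or in tenderloin, at 0.389 TPM. S0377 had 151.7 TPM in lymph, the second highest, and 0.393 TPM in backfat, where values ran to 22.9 TPM. The olfactory receptor entry OR2I1 was also lowest in S0349, at 0.802 TPM in lymph. In S0242 the genes parted, with the highest lymph value of UBD, 296 TPM, beside 2.43 TPM of OR2I1. NPHS1, a protein of the kidney filter, was too low for the test, with 3.41 to 6.42 TPM (median 4.12) in lymph and at most 0.461 TPM elsewhere, and the lymph library of S0235 had 13.2 TPM.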
